A study of Mus musculus with 16 samples.

Results

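The genes of the major histocompatibility complex (MHC) class II pathway were followed in inguinal white adipose tissue of male mice by RNA-seq. The set holds 7 genes of the 55487 in the count table: H2-Aa, H2-Ab1, H2-Eb1, Cd74, Ciita, H2-DMa and H2-DMb1. They were chosen by symbol and not by their values, though earlier results of these data were known. All 7 passed the filter on low counts. The mice were whole-body Kmo knockouts (Kmo-KO, here KO) and wild-type littermates (WT), each on chow or on a high-fat diet (HFD), 6 to 7 months old, with 4 libraries in each of the 4 groups and 16 in all. Kmo encodes kynurenine 3-monooxygenase, an enzyme of tryptophan breakdown. The knockout acts in the whole body rather than in one cell type. The strain and the time on HFD are not given in the sources used here. The labels give each library an animal code, and the column names show 4 libraries from a single lane (WT chow replicate 2, WT HFD replicates 3 and 4, KO HFD replicate 1) and the others merged over lanes. No litter or preparation batch is given, and the spread between mice of a group is taken as the error.

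MHC class II molecules are pairs of an alpha and a beta chain that show peptides to CD4 T cells. H2-Aa and H2-Ab1 encode the 2 chains of the A molecule, and H2-Eb1 the beta chain of the E molecule. Cd74, the invariant chain, guides them to the endosome and blocks their groove. H2-DMa and H2-DMb1 encode the DM molecule, which helps to clear that groove for peptide, and Ciita is the coactivator that class II promoters depend on. B cells, dendritic cells and macrophages carry class II, and interferon gamma can switch it on in other cells through Ciita. The inguinal fat pad surrounds a lymph node, which is rich in B cells.

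In the annotation of the files (GRCm38), 5 members lie in the class II region of chromosome 17: H2-DMa at chr17:34119541-34139101, H2-DMb1 at chr17:34153072-34160230, H2-Ab1 at chr17:34257689-34269419, H2-Aa at chr17:34282744-34287823 on the minus strand, and H2-Eb1 at chr17:34305867-34316674. Ciita lies at chr16:10480059-10528418 and Cd74 at chr18:60803848-60812652. Counting did not use the strand, so where exons of a gene overlap those of an antisense one, their reads cannot be told apart. That could touch H2-DMa most, whose span is shared with Brd2 (up to 253 CPM, counts scaled to library size). It could also touch Ciita, whose span overlaps that of Dexi (up to 22.3 CPM). Only spans were compared, and overlap of exons was not checked. H2-DMb1 and H2-DMb2, like H2-Eb1 and H2-Eb2, are close copies, and the split of reads between copies is uncertain.

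Total counts were 13824404 to 16909361 per library. Adipocyte transcripts were abundant in every library (Adipoq, 1610 to 3278 CPM), as the tissue label says. Kmo had 40 to 298 counts in WT libraries and 1 to 8 in KO libraries. The libraries stood apart in lymphocyte RNA: Cd79a, part of the B cell receptor, was at 0.189 to 4.75 CPM in 9 libraries and at 18.1 to 85.7 CPM in 7. The 7 libraries high in Cd79a were WT chow replicates 1, 2 and 4, KO chow replicates 1 and 3, WT HFD replicate 2 and KO HFD replicate 1. Summed levels of the 10 B cell markers were 186 to 798 CPM in these 7 and 4.22 to 36.1 CPM in the other 9. The 10 T cell markers summed to 23.65 to 391 CPM against 4.16 to 16.5 CPM. The 6 markers of lymph node stroma and high endothelium summed to 19.2 to 117 CPM against 1.17 to 13.8 CPM. Among those 6, Chst4, a sulfotransferase of high endothelial venules, was at 0 in all 9 low libraries. Ccl21a and Madcam1 overlapped between the sets, and the others did not. In WT chow replicate 1, a high library, Ccl21a was at 0.652 CPM and Madcam1 at 0.130 CPM. Ccl21a was at 1.95 CPM in WT HFD replicate 4 and Madcam1 at 0.599 CPM in WT HFD replicate 3, both low libraries. Cxcl13 made up 17.1 of the 19.2 CPM summed in WT chow replicate 1. The comparisons of genotype and diet below are therefore given for all 16 libraries, with log2 Cd79a as a covariate, and in the 9 low libraries. In bulk tissue, fewer cells of a type and less RNA per cell cannot be told apart.

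Class II promoters are known for an X box, bound by the RFX complex, followed by a Y box, bound by NF-Y. Windows of RefSeq (GRCm38.p6) from 250 bases before to 50 after a start site were found for 4 of the 7 members: H2-Aa, H2-Eb1, H2-DMa and H2-DMb1. Both strands were searched for the letters GNAAC, from the X box, followed after 20 to 35 bases by ATTGG, from the Y box; the letters were chosen after these sequences had been read. ATTGG alone was in 37.4% of the 32851 windows in the table and GNAAC alone in 84.8%, whereas the pair was in 2.67%. H2-Aa, H2-Eb1 and H2-DMb1 held the pair. H2-DMa did not hold these letters at either of its 2 listed starts. Among 10 other genes of the class II list with a window, H2-Oa, H2-Ob and H2-Eb2 held it. The stretches before the start of 2 members and of 2 relatives are shown because all 4 share the pair while their RNA levels part widely between libraries. They are written 5′ to 3′ on the strand of the gene, with the X and Y letters in capitals, and annotated exons are left out.
H2-Aa, chr17:34287824-34287973, minus strand: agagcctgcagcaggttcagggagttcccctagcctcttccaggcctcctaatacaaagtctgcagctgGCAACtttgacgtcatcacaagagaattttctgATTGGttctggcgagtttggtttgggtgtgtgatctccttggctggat
H2-Eb1, chr17:34305721-34305866, plus strand: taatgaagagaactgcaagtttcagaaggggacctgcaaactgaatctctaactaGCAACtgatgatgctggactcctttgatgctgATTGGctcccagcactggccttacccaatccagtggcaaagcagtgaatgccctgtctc
H2-Ob, chr17:34238755-34238902, plus strand: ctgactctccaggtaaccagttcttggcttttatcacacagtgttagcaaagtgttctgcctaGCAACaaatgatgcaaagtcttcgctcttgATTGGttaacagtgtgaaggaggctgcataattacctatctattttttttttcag
H2-Eb2, chr17:34325525-34325664, plus strand: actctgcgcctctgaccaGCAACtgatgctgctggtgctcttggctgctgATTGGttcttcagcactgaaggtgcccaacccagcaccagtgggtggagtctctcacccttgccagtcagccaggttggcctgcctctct
The gap between the letters was 28 bases in H2-Aa and H2-DMb1, 27 in H2-Eb1 and H2-Eb2, and 25 in H2-Ob. A match of letters is a description and not evidence of binding.

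Per kilobase of annotated exon, the members kept one order in all 16 libraries. Cd74 was the most abundant, with a median of 331 CPM per kb (range 212 to 774). H2-Eb1 followed at a median of 143 CPM per kb, H2-Ab1 at 101.5 and H2-Aa at 82.3. The DM chains were lower, with H2-DMb1 at a median of 17.4 CPM per kb and H2-DMa at 7.70. Ciita, the coactivator, was lowest at 1.93 CPM per kb (range 0.956 to 7.95). Each member was above the next one in 16 of 16 libraries. H2-Ea, the alpha partner of H2-Eb1, is named H2-Ea-ps in the reference gene symbols. It had at most 2 counts in any library and was not tested. Whether an E molecule is made was not measured.

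The chains of the A molecule differed little between group means. H2-Aa was at 330, 595, 193 and 522 CPM in WT chow replicates 1 to 4 and at 570, 227, 444 and 295 CPM in KO chow. On HFD it was at 282, 601, 346 and 240 CPM in WT and at 616, 266, 214 and 244 CPM in KO. Each group thus spanned low and high libraries, and the 4 ranges overlapped. H2-Ab1, the beta chain, averaged 357 ± 165 CPM in WT and 334 ± 142 in KO mice on chow, and 345 ± 169 and 309 ± 162 on HFD (SD, n = 4 each). H2-Eb1 averaged 353 ± 143, 350 ± 119, 333 ± 137 and 296 ± 155 CPM in the same order of groups (SD, n = 4 each).

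Cd74 was at 536, 1074, 356 and 1039 CPM in WT chow and at 1091, 386, 866 and 542 in KO chow. On HFD it was at 549, 1300, 712 and 497 CPM in WT and at 1214, 563, 459 and 502 in KO. On HFD 1 library of each genotype stood well above the other 3, while on chow the libraries were spread between the extremes. Ciita was at 21.1, 57.2, 9.11 and 75.8 CPM in WT chow and at 52.1, 10.99, 52.8 and 15.8 in KO chow. On HFD it was at 13.9, 54.4, 21.1 and 10.7 CPM in WT and at 70.5, 14.9, 11.1 and 14.2 in KO. The libraries high in Ciita were those high in Cd79a, with WT chow replicate 1 next to the highest of the low ones.

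H2-DMa averaged 32.8 ± 15.1 CPM in WT and 31.0 ± 14.7 in KO mice on chow, and 32.8 ± 12.3 and 29.2 ± 13.4 on HFD (SD, n = 4 each). H2-DMb1 was at 18.96, 32.5, 16.96 and 33.8 CPM in WT chow and at 32.8, 13.7, 29.6 and 25.5 in KO chow. On HFD it was at 38.3, 48.9, 38.8 and 20.2 CPM in WT and at 35.05, 25.4, 29.0 and 21.1 in KO. In WT HFD 3 of 4 libraries lay above every WT chow library, and the fourth lay inside their range.

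**Figure D1:**
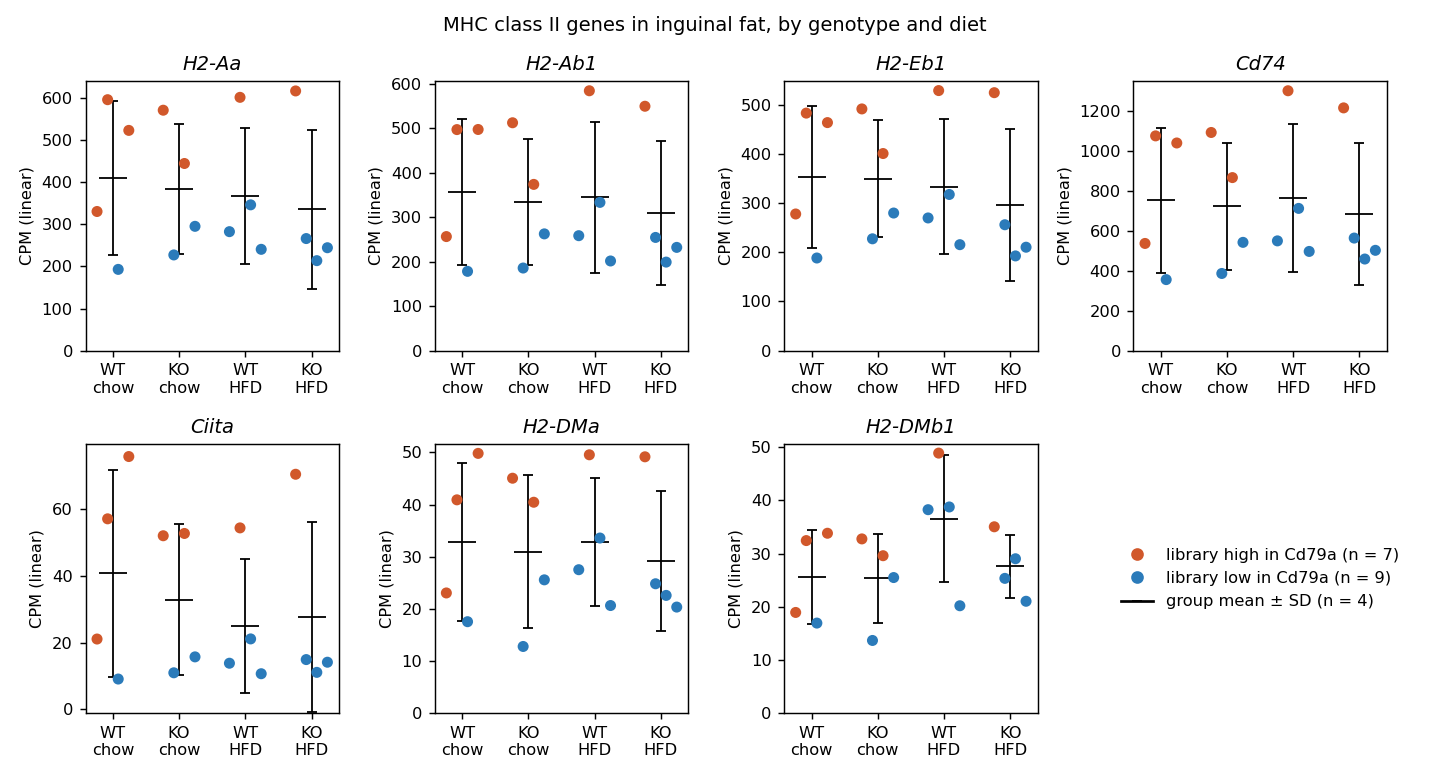
CPM (linear axis) of the 7 class II genes in each library, by genotype and diet, with the group mean ± SD (n = 4); orange points are the 7 libraries high in Cd79a and blue points the 9 low ones. In each panel the groups overlap, and within a group the orange points are mostly the upper ones.

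The members differed in the size of the step between libraries low and high in Cd79a. In the 9 low libraries, H2-Aa was at 193 to 346 CPM with a median of 244, and in the 7 high ones at 330 to 616 CPM with a median of 570. The high median was 2.34 times the low one, and the ranges overlapped. The ratio of medians was 2.14 for H2-Ab1, 2.12 for H2-Eb1, 2.14 for Cd74 and 1.99 for H2-DMa, with overlap in each. So 42.8% to 50.2% of the level in high libraries was present in the low ones for these 5 genes. Ciita had the widest step of the 7, from a median of 13.9 to 54.4 CPM, a ratio of 3.93. H2-DMb1 had the smallest, from 25.4 to 32.8 CPM, a ratio of 1.29. These are descriptions of libraries sorted by Cd79a, and no test was made.

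A further 4 class II genes had almost none of their RNA in the low libraries. H2-Ob and H2-Oa encode the DO molecule, an inhibitor of DM known from B cells. H2-Ob was at 1.26 to 6.85 CPM in the low libraries and at 28.6 to 127 CPM in the high ones, with medians 29.2-fold apart and no overlap. H2-Oa was at 0 to 0.998 CPM against 3.19 to 17.4 CPM. H2-Eb2, the copy of H2-Eb1, was at 0 to 0.998 CPM against 4.76 to 20.7 CPM, and H2-DMb2, the copy of H2-DMb1, at 0.819 to 3.99 CPM against 11.4 to 65.8 CPM. Thus the low libraries held 77.4% of the high median of H2-DMb1 but 4.88% of that of H2-DMb2. The promoter stretches of H2-Ob and H2-Eb2 printed above carry the same pair of letters as H2-Aa and H2-Eb1.

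**Figure D2:**
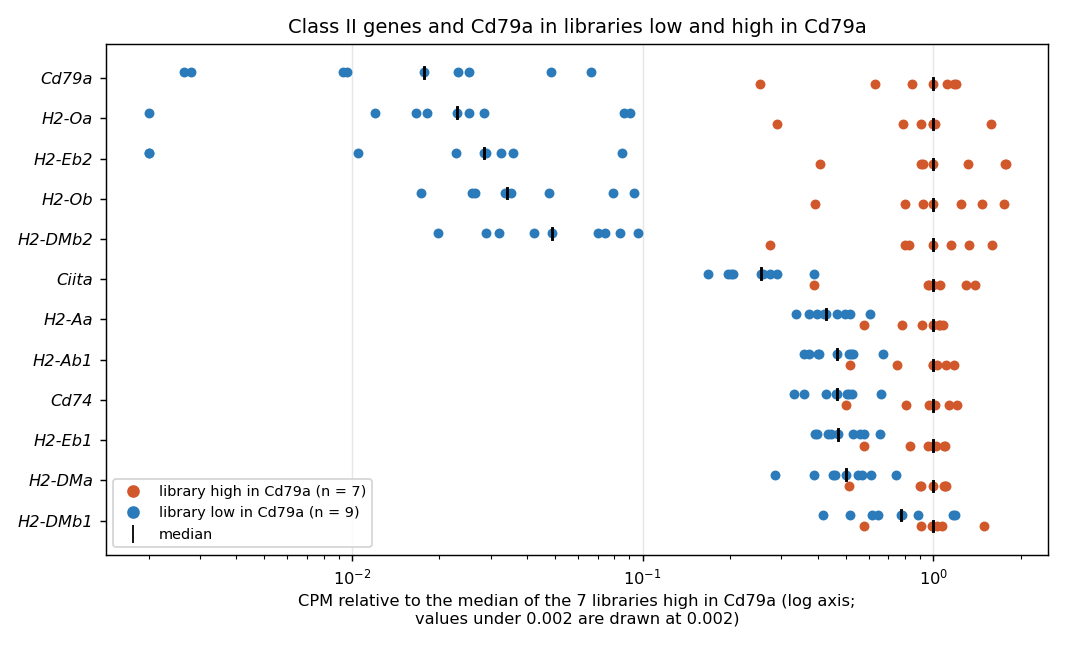
CPM of class II genes and Cd79a in each library, divided by the median of the 7 libraries high in Cd79a (log axis); orange is high in Cd79a, blue is low, and black ticks are medians. The 7 members overlap between the 2 sets of libraries, while H2-DMb2, H2-Ob, H2-Eb2 and H2-Oa do not.

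Ratios between members do not depend on the scaling of a library. With the libraries sorted by Cd79a, they set Ciita and H2-DMb1 apart from the other members. Per kb, H2-Ab1 was 26.6% to 32.8% of Cd74 in the low libraries and 28.2% to 31.3% in the high ones, and the SD of the log2 ratio over 16 libraries was 0.075. H2-Aa was 20.6% to 25.98% of Cd74 against 20.4% to 27.2%, and H2-Eb1 36.2% to 50.8% against 35.1% to 44.7%. H2-DMa was 1.62% to 2.44% of Cd74 in low and 1.85% to 2.33% in high libraries. Ciita was 0.380% to 0.523% of Cd74 in the low libraries and 0.693% to 1.29% in the high ones, with no overlap. H2-DMb1 went the other way, at 3.54% to 6.96% of Cd74 in low and 2.88% to 3.76% in high libraries. Relative to Cd74, the medians of the coactivator and the DM beta chain thus differed between the sets in opposite directions, without overlap for Ciita and with overlap for H2-DMb1. Sorted by diet, H2-Aa was 22.2% to 27.2% of Cd74 on chow and 20.4% to 22.7% on HFD. H2-Eb1 was 38.5% to 50.8% of Cd74 on chow against 35.1% to 42.4%, and H2-Ab1 28.2% to 32.8% against 26.6% to 30.8%. These ranges overlapped, and the ratios were not tested.

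**Figure D3:**
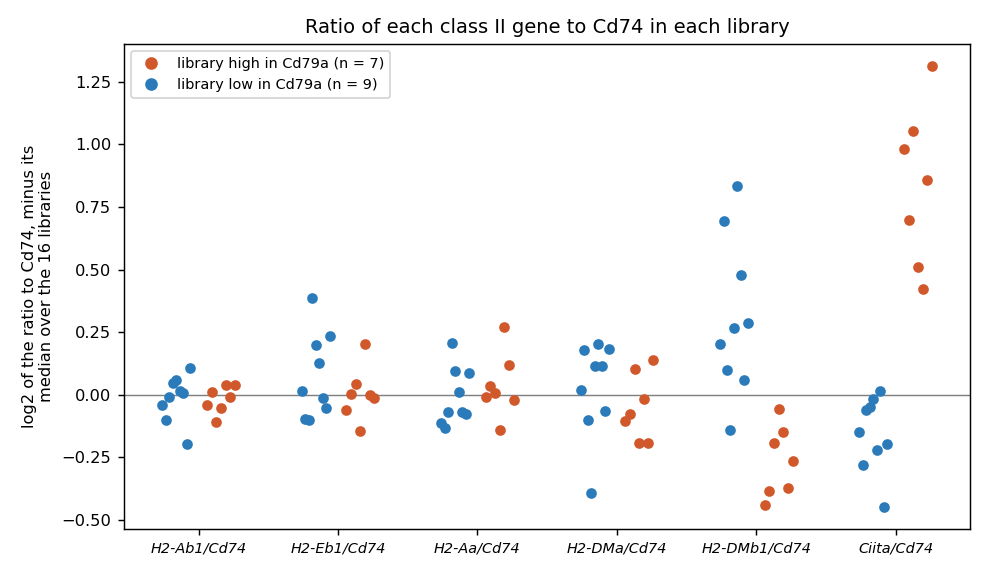
Log2 ratio of each gene to Cd74 per kb in each library, minus its median over the 16 libraries; orange is high in Cd79a, blue is low. H2-Ab1, H2-Eb1, H2-Aa and H2-DMa are intermixed between the colours, while every orange point of Ciita lies above every blue one.

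Because the libraries form separate clusters in Cd79a, correlations of the members with Cd79a were taken within each cluster and not over all 16. Within the 9 low libraries, Pearson's r with log2 Cd79a ran from -0.15 for H2-DMa to 0.22 for Ciita, and Spearman's rho from -0.05 to 0.27. The smallest exact permutation p among these 7 genes was 0.567 for r and 0.493 for rho (both for Ciita, two-sided). Within the 7 high libraries, H2-DMa had r = 0.96 and rho = 0.86 and Ciita r = 0.93 and rho = 0.79. The exact permutation p for r was 0.0113 for H2-DMa and 0.0181 for Ciita, and both became 0.114 after Benjamini-Hochberg adjustment over the 14 relations. For rho they were 0.0238 and 0.0480, and both became 0.309 after adjustment. The other 5 members had r of 0.76 to 0.86 there. Without the 2 libraries farthest from the median of Cd79a, r was 0.63 for H2-DMa, 0.78 for Ciita and 0.19 to 0.34 for the other 5, so those 5 values rest on these 2 libraries.

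The comparison of KO with WT asks whether loss of Kmo shifts class II expression in fat. None of the 7 members passed the test on chow, on HFD or over both diets (edgeR quasi-likelihood test, Benjamini-Hochberg adjustment over 16549 genes, threshold 0.05), where 0.00604% of all genes tested did in each. None had an unadjusted p under 0.05 in these comparisons, and DESeq2 also called 0 of 7. Several members rose and fell with Cd74 over the libraries (SD of the log2 ratio 0.075 for H2-Ab1, 0.17 for H2-DMa), H2-DMb1 (0.38) and Ciita (0.55) less closely. Shared signs of members, here and below, are therefore not 7 separate results. Over both diets all 7 log2 fold changes were below 0, with a median of -0.11 against 0.0017 for all genes. Cd74 was at -0.11 (SE 0.32, 95% interval -0.79 to 0.57) and H2-Aa at -0.11 (SE 0.31, interval -0.77 to 0.54). Ciita had the widest interval, -1.32 to 1.15 around -0.084, and H2-DMb1 the value farthest from 0, at -0.21 (interval -0.67 to 0.26).

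With Cd79a as a covariate the intervals became narrower: Cd74 was at -0.029 (-0.35 to 0.29), H2-Aa at -0.049 (-0.34 to 0.25) and H2-DMb1 at -0.15 (-0.49 to 0.19). None of the 7 was called in that fit, against 0.00604% of genes. In the 9 low libraries 5 of 7 were above 0 over both diets and none was called, against 0.0116% of genes; that fit has 1 WT chow library, which is assumed to vary like the others. Without KO HFD replicate 1, H2-Aa over both diets was at -0.35 and Ciita at -0.61. Without WT HFD replicate 2 they were at 0.058 and 0.28. In the authors' deposited tables, the shrunken log2 fold change of the 7 members farthest from 0 was that of Cd74 on chow, at -0.000183. Shrinkage pulls such values toward 0, so their size cannot be set beside the values above. The lowest unadjusted p of a member there was 0.104, for H2-DMb1 on HFD (the authors' DESeq2).

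The comparison of HFD with chow covers the effect of the diet on the same genes. Over both genotypes 33.1% of all genes tested passed, and 0 of the 7 members did. In WT alone 11.8% of genes passed and in KO alone 12.5%, again with 0 of 7 members. No member had an unadjusted p under 0.05 in these 3 comparisons, and DESeq2 called none. H2-Aa had a log2 fold change of -0.18 over both genotypes (SE 0.31, interval -0.83 to 0.48), H2-Ab1 of -0.082 (-0.76 to 0.59), H2-Eb1 of -0.16 (-0.76 to 0.43) and Cd74 of -0.025 (-0.70 to 0.65). Ciita was at -0.48 (-1.72 to 0.76) and H2-DMa at -0.043 (-0.70 to 0.61). H2-DMb1 alone of the 7 was above 0, at 0.32 (SE 0.22, interval -0.15 to 0.79, adjusted p = 0.279). The median of the 7 was -0.082, against -0.039 for all genes.

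With Cd79a as a covariate all 7 log2 fold changes of HFD against chow over both genotypes were above 0, with a median of 0.26 against -0.023 for all genes. That fit takes 1 slope on log2 Cd79a per gene, while r was -0.15 to 0.22 within the low libraries and 0.76 to 0.96 within the high ones. WT and KO chow had 3 and 2 high libraries and each HFD group 1, so the diet values depend on that slope. H2-DMb1, the DM beta chain, passed the test at 0.53 (SE 0.17, interval 0.17 to 0.89, edgeR adjusted p = 0.0287), where 30.7% of all genes did. So 1 of 7 members was called, a share below that of all genes. Cd74 was at 0.34 (interval -0.0047 to 0.68, edgeR adjusted p = 0.124), H2-DMa at 0.30, H2-Ab1 at 0.26, Ciita at 0.17, H2-Aa at 0.16 and H2-Eb1 at 0.14. In WT alone H2-DMb1 was at 0.74 (edgeR adjusted p = 0.0529), where 11.3% of genes passed, and in KO alone at 0.32 (edgeR adjusted p = 0.368), where 13.4% did. The H2-DMb1 call over both genotypes was lost without WT chow replicate 3 (edgeR adjusted p = 0.0719), WT HFD replicate 2 (0.0725), WT HFD replicate 3 (0.0524) or KO HFD replicate 3 (0.0522). It was also lost with the replicate number as a block beside the covariate (0.54, edgeR adjusted p = 0.0657), and DESeq2 with the covariate kept it (adjusted p = 0.0133). Without KO chow replicate 4, Cd74 passed as well, at 0.47 (edgeR adjusted p = 0.0496).

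Among the 9 low libraries all 7 members were again above 0 over both genotypes, with a median of 0.38, and 0 passed the edgeR test, where 10.1% of genes did. Cd74 was at 0.43 (SE 0.16, interval 0.070 to 0.79, edgeR adjusted p = 0.116) and H2-DMb1 at 0.65 (SE 0.28, interval 0.011 to 1.29, edgeR adjusted p = 0.170). These 2 were the members with an unadjusted p under 0.05. In WT, the 3 HFD libraries lay above the single chow library for all 7 members; the groups did not overlap for 59.1% of all genes. That chow library, WT chow replicate 3, stood apart in skeletal muscle RNA, with the 10 muscle markers summing to 4663 CPM against 16.8 to 2051 CPM in the other 15 libraries; the part of this in the result was not tested. In KO, with 3 HFD and 2 chow libraries, H2-DMb1 was at 0.36 and Cd74 at 0.13, while H2-Aa was at -0.11 and H2-Eb1 at -0.20, and the groups overlapped for each of the 7. No member passed in WT (0.0407% of genes did) or in KO (3.85% did).

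**Figure D4:**
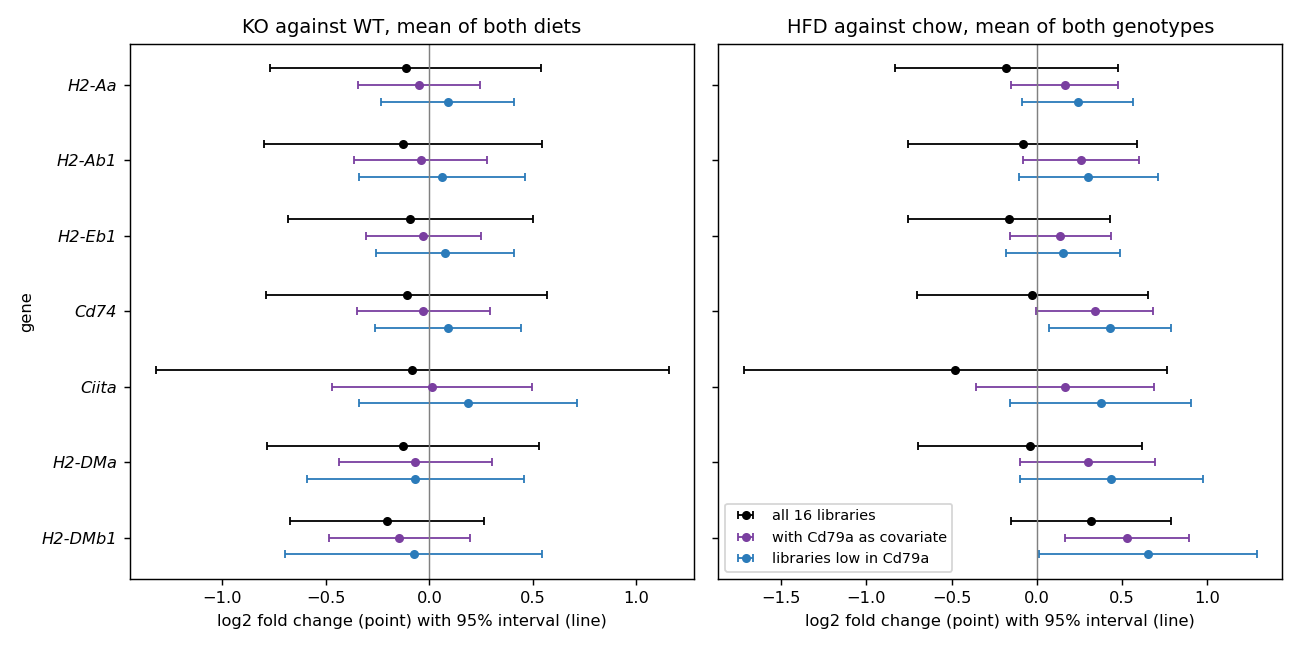
Log2 fold change with 95% interval for the 7 members, HFD against chow over both genotypes and KO against WT over both diets, in all 16 libraries, with Cd79a as a covariate and in the 9 low libraries. The intervals are narrower with the covariate, and for HFD against chow its 7 values lie above 0, with that of H2-DMb1 clear of 0.

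The interaction, which asks whether the diet difference depends on genotype, was not called for any of the 7 by edgeR (0% of genes were) or DESeq2, and no unadjusted p was under 0.05. In that fit of all 16 libraries the farthest from 0 was Ciita, at 0.45 (interval -2.02 to 2.93), and H2-DMb1 was at -0.39 (-1.33 to 0.54). With the covariate Ciita was at 0.15 (-0.82 to 1.12) and H2-DMb1 at -0.42 (-1.10 to 0.26). In the 9 low libraries all 7 were below 0, with H2-Eb1 at -0.72 (interval -1.39 to -0.039) and H2-Aa at -0.70 (-1.35 to -0.051). Their edgeR adjusted p was 0.967, as for the other 5 members, and 0.0174% of genes passed; the values rest on 1 WT chow library.

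Of the other class II and peptide-loading genes, 14 of 15 were tested for HFD against chow over both genotypes, where 17.1% of all genes were called higher and 16% lower. Ctsl and Lgmn, endosomal proteases that cut the invariant chain or antigen, rose by 0.62 (SE 0.14, edgeR adjusted p = 0.00472) and 0.51 (SE 0.16, adjusted p = 0.0266). Ctsl averaged 443 ± 123 CPM in WT and 409 ± 93.4 in KO mice on chow, against 693 ± 56.5 and 616 ± 95.1 on HFD (SD, n = 4 each). Lag3, a receptor for class II on T cells, fell by 0.38 on the log2 scale (adjusted p = 0.0324), a call lost in the low libraries (-0.41, adjusted p = 0.151) and when any 1 of 7 libraries was left out. With the covariate 15.7% of all genes were called higher and 15% lower, and in the low libraries 5.6% and 4.54%. Ctsl kept its call with the covariate (adjusted p = 0.00694) and missed it in the low libraries (0.47, adjusted p = 0.0660). Lgmn kept its call in both (adjusted p = 0.0319 and 0.0378) but lost it when WT chow replicate 1 or 4, KO chow replicate 2 or 3 or WT HFD replicate 3 was left out. The median of the 14 was -0.47.

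Of the 11 transcription factors of class II genes, 1 rose and 2 fell on HFD, beside 17.1% and 16% of all genes. Nfyb, a subunit of NF-Y, rose by 0.19 (SE 0.062, edgeR adjusted p = 0.0249). That call was lost with upper-quartile scaling, without the filter, in the low libraries (0.20, adjusted p = 0.231) and without WT chow replicate 4. Rfx5, the subunit of RFX that binds the X box, fell by 0.54 on the log2 scale (adjusted p = 0.0397), and Nlrc5, the class I counterpart of Ciita, by 0.40 (adjusted p = 0.0423). Rfx5 was at 8.11 to 11.5 CPM in the libraries low in Cd79a and at 13.8 to 25.2 CPM in the high ones, with no overlap. In the low libraries Rfx5 was at -0.10 and Nlrc5 at -0.089, and neither was called. Both calls were also lost with the covariate, with the replicate block and in the libraries merged over lanes, and that of Nlrc5 without the filter. Rfx5 lost its call when any 1 of 11 libraries was left out, and Nlrc5 when any 1 of 12 was.

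The interferon gamma pathway can induce Ciita. Of 12 genes tested of 13 in its list, 5 fell and 1 rose on HFD, with a median of -0.31. Among all genes tested 16% were called lower and 17.1% higher. Ifng itself was at 0 to 0.383 CPM and was the gene left untested. Gbp7, an interferon-induced GTPase, fell by 0.48 on the log2 scale (SE 0.095, edgeR adjusted p = 0.00180). Irf1, a transcription factor that acts on Ciita, fell by 0.57 (SE 0.13, adjusted p = 0.00412), from 64.5 ± 16.4 CPM in WT and 71.9 ± 17.9 in KO mice on chow to 47.8 ± 6.39 and 44.1 ± 4.22 on HFD (SD, n = 4 each). Ifngr2, a receptor subunit, rose by 0.27 (adjusted p = 0.0108). Gbp4, at -0.82, and Cxcl9, at -0.49, also fell, and are named after their values were seen.

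These calls were kept with Cd79a as a covariate, where 5 fell and 2 rose, beside 15% and 15.7% of all genes. The added one was Jak1, a kinase of the receptor, at 0.35 (edgeR adjusted p = 0.00632). In the libraries merged over lanes Gbp4 and Cxcl9 lost their calls. In the 9 low libraries none of the 5 passed: Gbp7 was at -0.33 (adjusted p = 0.0833) and Irf1 at -0.24 (adjusted p = 0.178), where 4.54% of all genes were called lower. Ifngr2 was not called there either, at 0.19 (adjusted p = 0.250), and Jak1 passed, at 0.43 (adjusted p = 0.0309).

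Class I presentation, a neighbouring pathway that shows peptides to CD8 T cells, had 5 genes that fell and 2 that rose among 12 tested, with a median of -0.18. The shares of all genes called lower and higher were 16% and 17.1%. Psmb9, a subunit of the immunoproteasome, fell by 0.85 on the log2 scale (SE 0.15, edgeR adjusted p = 0.00079), from 54.9 ± 13.7 CPM in WT and 52.7 ± 12.9 in KO mice on chow to 30.9 ± 5.12 and 28.8 ± 5.41 on HFD (SD, n = 4 each). H2-K1, a class I heavy chain, fell by 0.30 (adjusted p = 0.0111). Calr and Canx, chaperones of the endoplasmic reticulum, rose by 0.43 (adjusted p = 0.00112) and 0.33 (adjusted p = 0.00204). H2-D1 at -0.29, Psmb8 at -0.56 and Tap1 at -0.71 were the other 3 that fell, named after their values were seen. In the low libraries Psmb9 kept its call (-0.47, adjusted p = 0.0392) and the other 6 did not: Canx was at 0.31, Calr at 0.32, H2-D1 at -0.28, H2-K1 at -0.21, Psmb8 at -0.21 and Tap1 at -0.22 (adjusted p from 0.0848 to 0.263). Tap1 also lost it without the filter, and when KO chow replicate 3, KO HFD replicate 3 or WT chow replicate 4 was left out. In the libraries merged over lanes H2-K1, H2-D1, Psmb8 and Tap1 lost their calls. For KO against WT over both diets, 0 genes of each of these 4 lists passed the edgeR test or DESeq2, and 1 gene of these lists, a transcription factor, had an unadjusted p under 0.05.

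Marker lists of cells that carry class II were read beside these values, and their part in the class II results was not tested. On HFD against chow over both genotypes, 0 of 10 B cell, 0 of 10 T cell and 0 of 10 dendritic cell markers passed the edgeR test, with medians of -1.01, -2.14 and -0.21. Of these, 0, 1 and 1 had an unadjusted p under 0.05, and DESeq2 called 0, 1 and 0. The summed B cell markers had a median of 295 CPM in WT and 246 in KO mice on chow against 21.2 and 14.7 on HFD. Of 12 macrophage markers 2 rose, where 17.1% of all genes did: Cd68 (0.54, edgeR adjusted p = 0.0445) and Adgre1 (0.88, adjusted p = 0.0454). Both calls were lost with upper-quartile scaling, without the filter and with the replicate block. Adgre1 also lost its call with Cd79a as a covariate, and Cd68 in the low libraries. Cd68 lost it when any 1 of 10 libraries was left out, and Adgre1 when any 1 of 13 was. In the low libraries, where WT chow has 1 library, Lyve1, Folr2, Cd163 and Adgre1 were at 1.68, 1.36, 1.23 and 1.19. These 4 were picked by their values in that fit. The summed macrophage markers had medians of 631 and 653 CPM in WT and KO chow against 1293 and 994 CPM in WT and KO HFD. Of 10 lipid-associated macrophage genes 2 rose, again beside 17.1% of all genes: Itgad (3.55, adjusted p = 0.00520) and Cd9 (0.46, adjusted p = 0.0242). In the low libraries Itgad was at 2.89 (adjusted p = 0.193) and Cd9 at 0.54 (adjusted p = 0.176), neither called, and Spp1 fell by 1.72 on the log2 scale (adjusted p = 0.0228). Cd9 also lost its call in the libraries merged over lanes, without WT chow replicate 4, without KO chow replicate 3 and without WT HFD replicate 3.

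As a description, the genes whose log2 CPM was most like the mean log2 CPM of the 7 members were ranked by Pearson's r, in the same libraries, so that the genes share their cells and depth with the members. The values over all 16 libraries span both clusters in Cd79a. Over all 16 libraries the first was Cyp4f18 (r = 0.99), followed by Blnk, an adaptor of the B cell receptor (0.97), Syk, a kinase of immune receptors (0.97), Wdfy4 (0.96), Cd180 (0.96), Map4k1 (0.96), Coro1a (0.96), Fermt3 (0.96), Irf5 (0.96) and Lcp1 (0.96). Over the 9 low libraries the order was Gpn2 (0.98), Slc38a1 (0.96), Igsf6 (0.95), Cd84 (0.94), Pik3r5 (0.94), Cyp4f18 (0.94), Cybb, the catalytic chain of the phagocyte oxidase (0.94), Apoc4 (0.94), Bcl2a1d (0.93) and Tec (0.93). Cyp4f18 was in both lists.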

How the data were processed

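RNA of inguinal fat from 16 male mice was sequenced, with 4 libraries in each of 4 groups taken from the titles. Per the submitters' processing notes the authors aligned reads with STAR 2.7.3a to GRCm38.p6, and per the file headers the deposited raw counts per gene were made with featureCounts 2.0.3 on read pairs, without use of the strand. The authors' deposited DESeq2 tables give shrunken log2 fold changes, p-values and adjusted p-values for KO against WT on each diet. No count column was left unused (0).

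From the counts, genes were filtered with filterByExpr, scaled by TMM, and tested with edgeR 4.0.16 (quasi-likelihood, robust; limma 3.58.1, R 4.3.3) on 16549 genes, as group means over all 16 libraries, with Benjamini-Hochberg adjustment over all genes and a threshold of 0.05. The 7 comparisons were KO against WT and HFD against chow, each singly and pooled, and the interaction. CPM used effective library sizes; levels per kb used the deposited exon length. Totals of 13824404 to 16909361 counts give Cd74 at least 5346 counts and Ciita at least 137 in every library, so counting error is small beside the spread between mice. Libraries low and high in Cd79a were split at the largest gap in its log2 CPM.

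The alternatives were RLE and upper-quartile scaling, CPM without factors, no filter, DESeq2 1.42.0, the replicate number as a block, Cd79a as a covariate, libraries low in Cd79a, libraries merged over lanes, and leaving out each library. Alternatives to the covariate fit were chosen after seeing the data. No 2 libraries agreed within sampling noise. Correlations used exact permutation (SciPy 1.17.1). The scripts were tested on simulated data. Promoter sequences are from RefSeq (GRCm38.p6); H2-Ab1, Ciita and Cd74 are named only.

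The members and lists were chosen with earlier results of these data known. Named are the 7 members, up to 4 called genes a list by adjusted p (or, with none called, the most abundant), Cd79a, and the 10 genes most like the members. A gene of the interferon gamma list is not reported here by name.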

Additional observations from a re-analysis of the deposited data

Results flagged for a closer look

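Among 28 checks of the highest and lowest library of a member within a group, 1 stood out. Ciita in KO HFD replicate 1 was at 6.14 on the log2 CPM scale (70.5 CPM), and its gap to the nearest of the other 3 libraries was 0.840 of the group's range. Chance marks about 1 in 20 such groups. That library was also high in Cd79a, at 84.5 CPM, while the other 3 of its group were at 0.200 to 1.81 CPM. Whether the 2 are linked was not tested.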

How the results depend on the processing

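No member value passed the threshold under leave-one-out fits of all 16 libraries (784 values, 149 with the other sign), and 1 of 392 did under the other alternatives (70 with the other sign). As no main value of a member passed, a change of sign is a change around 0. Log2 fold changes with the other sign, and counts of genes that moved, were as follows, and the cause was not tested except where fewer libraries enter.

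Without the filter, H2-DMa was at 0.022 for HFD against chow in WT, and 0, 0, 1245 and 1284 genes passed for KO against WT on chow and on HFD and for the diet in WT and KO mice. Upper-quartile scaling put Cd74 at -0.037 for HFD against chow in WT. It also moved the share of higher calls for HFD against chow from 58.4% to 46.7% in WT, from 58.2% to 45.2% in KO and from 51.7% to 41.2% over both.

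With Cd79a as a covariate, KO against WT on chow was at 0.035 for H2-Aa, 0.032 for H2-Ab1, 0.10 for H2-Eb1, 0.068 for Cd74, 0.014 for H2-DMa and 0.064 for H2-DMb1, and over both diets at 0.012 for Ciita. HFD against chow in WT was at 0.25, 0.33, 0.27, 0.090 and 0.38 for H2-Aa, H2-Ab1, H2-Eb1, Ciita and H2-DMa. In KO it was at 0.079, 0.18, 0.0082, 0.24, 0.24 and 0.22 for H2-Aa, H2-Ab1, H2-Eb1, Cd74, Ciita and H2-DMa. Over both genotypes it was at 0.16, 0.26, 0.14, 0.34, 0.17 and 0.30 for the same 6, and H2-DMb1 at 0.53 was the 1 member past the threshold.

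In the libraries low in Cd79a, KO against WT on chow was at 0.44, 0.33, 0.43, 0.39, 0.56, 0.13 and 0.21 for H2-Aa, H2-Ab1, H2-Eb1, Cd74, Ciita, H2-DMa and H2-DMb1. On HFD Ciita was at -0.18, and over both diets H2-Aa, H2-Ab1, H2-Eb1, Cd74 and Ciita were at 0.089, 0.062, 0.074, 0.091 and 0.19. HFD against chow in WT was at 0.59, 0.57, 0.51, 0.75 and 0.64 for H2-Aa, H2-Ab1, H2-Eb1, Ciita and H2-DMa, and in KO at 0.032, 0.13, 0.0049 and 0.24 for H2-Ab1, Cd74, Ciita and H2-DMa. Over both it was at 0.24, 0.30, 0.15, 0.43, 0.38 and 0.44 for H2-Aa, H2-Ab1, H2-Eb1, Cd74, Ciita and H2-DMa, and the Ciita interaction was at -0.74. Genes past the threshold numbered 2 on chow, 0 on HFD and 2 pooled for KO against WT, 7, 662 and 1744 for HFD against chow in WT, in KO and over both, and 3 for the interaction.

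In the libraries merged over lanes, KO against WT on chow was at 0.14, 0.10, 0.17, 0.16, 0.040 and 0.13 for H2-Aa, H2-Ab1, H2-Eb1, Cd74, H2-DMa and H2-DMb1, and on HFD at -1.36 for Ciita. HFD against chow was at 0.36, 0.46, 0.38 and 0.37 in WT for H2-Aa, H2-Ab1, H2-Eb1 and H2-DMa, at -0.0078 in KO for H2-DMb1 and at 0.020 over both for Cd74. The Ciita interaction was at -1.26, and 0, 0, 0 and 225 genes passed for the genotype on chow, HFD and both diets and for the diet in WT mice.

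The replicate numbers did not pair the libraries: over 24 same-numbered pairs r ran from -0.69 to 0.55, and 5 of 16 libraries were most like one of their own number. With the replicate block Ciita was at -0.036 for KO against WT on HFD, and 1050 and 1126 genes passed for HFD against chow in WT and KO. With the covariate and the replicate block, 0 members passed.

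Leaving out 1 library at a time, KO against WT on chow ran from -0.35 to 0.14 for H2-Aa, -0.38 to 0.10 for H2-Ab1, -0.22 to 0.18 for H2-Eb1, -0.33 to 0.17 for Cd74, -0.64 to 0.18 for Ciita, -0.32 to 0.19 for H2-DMa and -0.16 to 0.19 for H2-DMb1, with 0 to 1 genes past the threshold. On HFD it ran from -0.61 to 0.21, -0.59 to 0.22, -0.60 to 0.14, -0.59 to 0.22, -0.90 to 0.86 and -0.54 to 0.10 for the first 6, with 0 to 1 genes. Over both diets it ran from -0.35 to 0.058, -0.34 to 0.063, -0.31 to 0.066, -0.32 to 0.083, -0.61 to 0.28 and -0.31 to 0.010. HFD against chow in WT ran from -0.50 to 0.078 for H2-Aa, -0.43 to 0.15 for H2-Ab1, -0.40 to 0.10 for H2-Eb1, -0.36 to 0.25 for Cd74 and -0.27 to 0.27 for H2-DMa, with 689 genes (without WT HFD replicate 3) to 2400 (without WT chow replicate 3). In KO it ran from -0.67 to 0.058 for H2-Aa, -0.54 to 0.17 for H2-Ab1, -0.50 to 0.20 for Cd74, -1.29 to 0.071 for Ciita, -0.45 to 0.15 for H2-DMa and -0.083 to 0.27 for H2-DMb1, with 745 genes (without KO HFD replicate 2) to 2714 (without KO chow replicate 4). Over both it ran from -0.30 to 0.061 for H2-Ab1, -0.24 to 0.11 for Cd74 and -0.23 to 0.093 for H2-DMa. The interaction ran from -0.51 to 0.30, -0.49 to 0.32, -0.59 to 0.16, -0.53 to 0.28, -0.59 to 1.17 and -0.46 to 0.18 for the first 6. With the covariate, 0 to 2 members and 3169 (without WT HFD replicate 2) to 5454 genes passed for HFD against chow over both genotypes.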
